A study of Homo sapiens with 12 samples.

Results

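The nuclear-encoded subunits of the respiratory chain and of ATP synthase were followed by bulk RNA sequencing across 4 lines of the human MCF10 series, which derive from breast epithelium. The members are the 79 gene symbols, of 59427 in the table, that match the naming pattern of these subunits. The pattern uses no measured value. They comprise 36 subunits of complex I, 4 of complex II, 8 of complex III, 18 of complex IV and 12 of complex V, and ATP5IF1, the protein inhibitor of ATP synthase. NDUFA4 was placed with complex IV, of which it is now known to be a subunit. A few subunits with other names, such as CYC1 and ATP5MF, do not match the pattern and are given apart.

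The lines were MCF10A, the non-tumorigenic parent, and 3 lines derived from it. MCF10AT1 carries HRAS G12V in the labels, MCF10DCIS stands for ductal carcinoma in situ, and MCF10CA1a stands for metastatic disease. As background, the last pair were obtained through xenografts of the HRAS-transformed cells, so the introduced HRAS is shared by all derived lines. All lines grew in DMEM and F12 with the same additions, namely hydrocortisone, EGF, insulin, cholera toxin, antibiotics and horse serum. Each stage is represented by 1 line, so the stage and any other property of that line cannot be told apart. The labels give 3 libraries per line, but the deposited values are the authors' mean TPM of each line. No SD, n or p-value can therefore be attached to any value below, no difference has a replicate check, and the depth is unknown. In bulk RNA a lower level in each cell and fewer cells with the transcript cannot be told apart.

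Respiratory chain complexes pass electrons from NADH and succinate through ubiquinone and cytochrome c to oxygen, and complexes I, III and IV pump protons across the inner mitochondrial membrane. Complex V, the ATP synthase, uses the proton gradient to make ATP, and complex II also works as succinate dehydrogenase in the citric acid cycle. Most subunits are encoded in the nucleus and imported, while a small core is encoded in mitochondrial DNA, so both genomes contribute to complexes I, III, IV and V. Several complex IV subunits exist as paralogous isoforms whose use differs between tissues; COX7A1 and COX6A2 are the heart and skeletal muscle forms, and COX6B2, COX7B2 and COX8C are best known from testis.

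Many promoters of these genes hold motifs of the transcription factors NRF1, GABPA and YY1, which is textbook knowledge for respiratory genes and is shown here to set out what the members share beyond their names. RefSeq promoter windows on GRCh38.p14, each running from 250 bases before to 50 bases after the gene start, were found for 66 members in 79 windows. On either strand, the NRF1 letters (GCGC, any base, then TGCGC) were found in 18.99% of the members' windows and in 5.78% of all 35116 windows. The ETS-family letters CCGGAAGT, which GABPA binds, were found in 13.9% of the members' windows and in 4.14% of all windows. The YY1 letters AAGATGGC were found in 16.5% of the members' windows and in 2.89% of all windows. At least 1 of these motifs occurred in 40.5% of the members' windows, against 11.7% of all windows. A window was counted once for each motif, however many matches it held, and matches may share letters. The members' windows were also richer in CpG, with a median of 21 CpG dinucleotides against 14 over all windows, and motifs built of G and C were not compared at matched base composition. In 10 members the YY1 letters lay on the gene's own strand downstream of the gene start, with their first base 11 to 39 bases into the transcript. A match is a description of these letters and not evidence of binding. The 13 members without a window included COX7A1, COX6C, NDUFB5 and UQCRB.

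Windows of 3 members are shown, chosen to hold each of the motifs, with the matched letters in capitals and the rest in lower case, 5′ to 3′ on the gene's strand. NDUFA8, an accessory subunit of complex I whose level separated the lines, has overlapping NRF1 matches at the gene start (chr9:122159730-122160029, minus strand). UQCRC1, a core subunit of complex III, has an NRF1 match followed by a YY1 match 24 bases into the transcript (chr3:48609597-48609896, minus strand). ATP5PF, a subunit of the peripheral stalk of complex V, has a YY1 match and an ETS match (chr21:25734855-25735154, minus strand), and its promoter region is shared with GABPA, which is transcribed in the opposite direction.
NDUFA8: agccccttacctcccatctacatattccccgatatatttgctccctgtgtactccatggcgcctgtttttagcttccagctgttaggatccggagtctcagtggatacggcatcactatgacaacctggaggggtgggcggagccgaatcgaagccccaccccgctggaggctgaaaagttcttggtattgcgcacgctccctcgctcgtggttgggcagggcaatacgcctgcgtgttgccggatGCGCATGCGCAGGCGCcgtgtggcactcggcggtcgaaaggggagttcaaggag
UQCRC1: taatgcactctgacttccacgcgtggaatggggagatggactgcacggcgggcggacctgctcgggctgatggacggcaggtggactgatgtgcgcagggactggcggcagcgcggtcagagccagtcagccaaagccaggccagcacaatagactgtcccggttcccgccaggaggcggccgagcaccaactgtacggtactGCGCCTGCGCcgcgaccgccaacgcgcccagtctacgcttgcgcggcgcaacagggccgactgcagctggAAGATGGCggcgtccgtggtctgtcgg
ATP5PF: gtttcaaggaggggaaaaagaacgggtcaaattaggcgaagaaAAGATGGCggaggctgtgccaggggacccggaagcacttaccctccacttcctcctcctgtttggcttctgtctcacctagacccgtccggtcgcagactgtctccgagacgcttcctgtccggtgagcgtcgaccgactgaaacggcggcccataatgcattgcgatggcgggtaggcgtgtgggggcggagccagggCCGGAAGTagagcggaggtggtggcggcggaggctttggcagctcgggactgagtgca

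In every line the members were among the most abundant transcripts, and their levels kept nearly the same order. The median member reached 87.1 TPM in MCF10A, 79.2 TPM in MCF10AT1, 71.6 TPM in MCF10DCIS and 73.1 TPM in MCF10CA1a, counting the 75 members with at least 1 TPM in at least 1 line. Over all 13108 genes that met the same minimum, the median was 8.29 TPM in MCF10A, 7.60 TPM in MCF10AT1, 5.89 TPM in MCF10DCIS and 7.73 TPM in MCF10CA1a. The median member stood at percentile 94.3, 94.3, 94.6 and 93.6 of these genes in MCF10A, MCF10AT1, MCF10DCIS and MCF10CA1a. Across the 75 members, Spearman's rho of the levels between pairs of lines lay between 0.96 and 0.99, as a description across genes that share their libraries. The other 4 members, COX4I2, COX6A2, COX7B2 and COX8C, stayed under 1 TPM everywhere.

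The complexes differed in level more than the lines did. Complex V had the highest median, with 166 TPM in MCF10A, 160 TPM in MCF10AT1, 167 TPM in MCF10DCIS and 170 TPM in MCF10CA1a. Complex I had the lowest, with 58.5 TPM in MCF10A, 61.5 TPM in MCF10AT1, 54.8 TPM in MCF10DCIS and 62.5 TPM in MCF10CA1a. Between them, complex IV had a median of 135 TPM in MCF10A, 123.3 TPM in MCF10AT1, 125 TPM in MCF10DCIS and 105 TPM in MCF10CA1a. Complex III had 124 TPM in MCF10A, 92.3 TPM in MCF10AT1, 78.1 TPM in MCF10DCIS and 86.1 TPM in MCF10CA1a, and was highest in the parent line. Complex II, the smallest, kept its 4 subunits close together, with medians of 73.8 TPM in MCF10A, 64.7 TPM in MCF10AT1, 62.3 TPM in MCF10DCIS and 62.8 TPM in MCF10CA1a. Subunits of 1 complex are assembled in fixed numbers, yet their transcripts spanned a wide range. In MCF10A the highest complex I subunit, NDUFA13, reached 304 TPM, and the lowest, the flavoprotein-module subunit NDUFV3, reached 11.04 TPM. Complex V ran in MCF10A from 399 TPM for ATP5F1B, the catalytic beta subunit, to 15.4 TPM for ATP5F1E, the epsilon subunit of the central stalk.

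**Figure D1:**
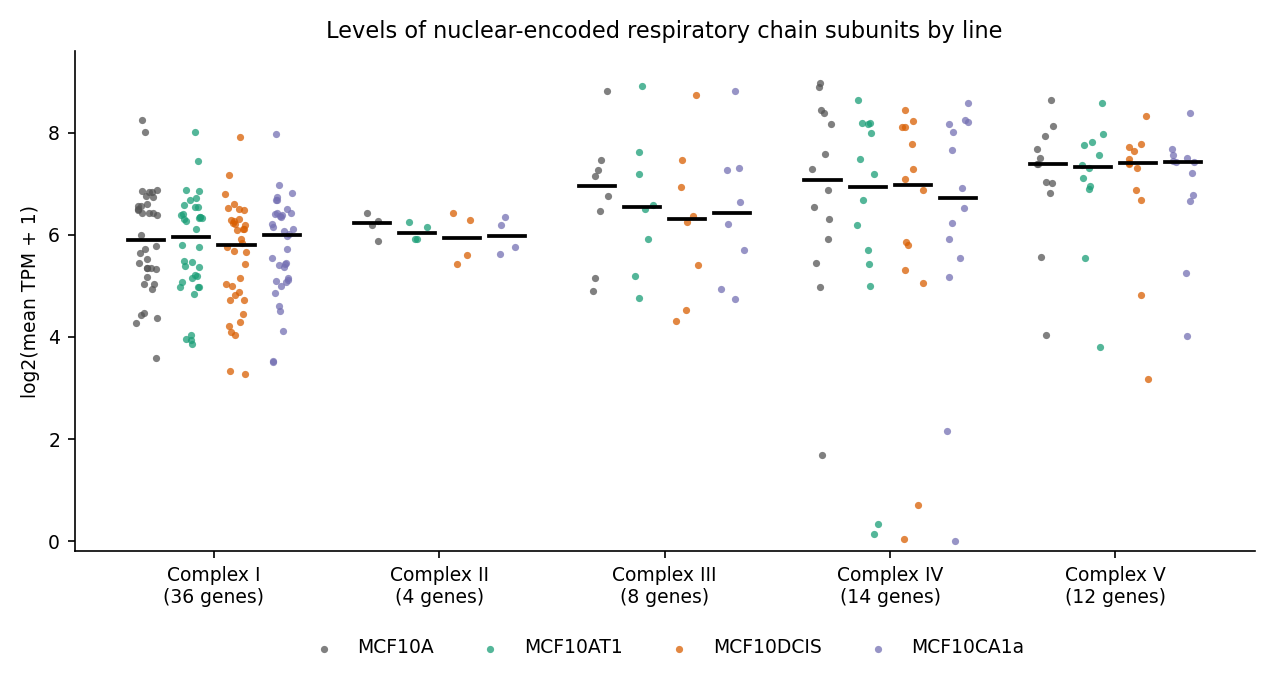
Each point is the authors' mean level of 1 subunit in 1 line as log2(mean TPM + 1), grouped by complex and coloured by line, and black bars are medians over the subunits compared; ATP5IF1 is not drawn. The medians of each complex lie close together across the 4 lines, while 3 of the 4 lines have complex IV points at or near 0, of which COX7A1 is the lowest.

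Differences between lines are given as the difference of log2(mean TPM + 1), the first-named line minus the second, and a member was counted as higher or lower when this reached 1, a 2-fold difference of TPM + 1. The scale of the table matters for them. Structural and small RNAs held 57.7% of the TPM of MCF10A, 60.0% of MCF10AT1, 66.0% of MCF10DCIS and 59.9% of MCF10CA1a, so other genes had a smaller share in MCF10DCIS. The median difference of all compared genes was -0.38 in MCF10DCIS against MCF10A, and -0.09 after TPM were rescaled without structural and small RNAs, ribosomal protein genes and mitochondrially encoded genes. Differences relative to all genes below have the median of all compared genes subtracted. The 3 comparisons with MCF10A share the MCF10A values, so their results are not independent of each other.

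In MCF10AT1 against MCF10A few subunits differed. None was counted as higher, against a background of 3.39% of all compared genes, and 2 were counted as lower, COX7A1 and COX6B2, against a background of 5.87%. The median difference was -0.13 for the 75 members and -0.07 for all compared genes. On rescaled TPM the median of the members was -0.00 and that of all compared genes 0.04. At a smaller limit of 1.5-fold, 1 member was higher (background 8.02%), the complex I subunit NDUFB6, and 5 were lower (background 15.3%), namely COX7A1, COX6B2, COX6C, UQCRC2 and COX4I1. On rescaled TPM, 0 members were higher by 2-fold (background 5.82%) and the same 2 were lower (background 6.64%).

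MCF10DCIS against MCF10A gave the lowest median, -0.31 for the members and -0.38 for all compared genes, and the members' sign was opposite on rescaled TPM (0.044), with median-of-ratios scaling (0.13) and with quantile normalization (0.071). None of the members was counted as higher (background 3.56%), and 3 were counted as lower (background 14.8%): COX7A1, NDUFA5 and UQCRB. On rescaled TPM, 1 was higher by 2-fold (background 7.83%), ATP5MC1, and 2 were lower (background 10.4%), COX7A1 and COX6B2. At 1.5-fold, 1 member was higher (background 7.17%) and 18 were lower (background 35.4%). On rescaled TPM the same limit gave 4 higher (background 15.9%) and 5 lower (background 22.6%), so the split between directions depended on the scale. ATP5MC1, an isoform gene for the c-subunit of the ATP synthase rotor, was the member highest relative to all genes, at 1.13.

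In MCF10CA1a against MCF10A, none of the members was counted as higher (background 5.97%) and 2 were counted as lower (background 7.14%), COX7A1 and NDUFB2. On rescaled TPM, 0 were higher by 2-fold (background 9.46%) and COX7A1 alone was lower (background 7.79%). The median difference was -0.19 for the members and -0.07 for all compared genes, and on rescaled TPM -0.05 and 0.05. At 1.5-fold none was higher (background 13.0%) and 9 were lower (background 17.6%). Apart from COX7A1, those 9 were NDUFB2, NDUFA5, UQCRB, NDUFA4, NDUFB10, COX4I1, COX6C and UQCRC2. On rescaled TPM this limit gave 5 higher (background 18.9%) and 6 lower (background 16.0%).

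Between the derived lines, fewer members passed the limit. In MCF10DCIS against MCF10AT1 none was counted as higher (background 3.23%) and 1 as lower (background 7.51%), NDUFA8. COX6B2 alone was counted as higher in MCF10CA1a against MCF10AT1 (background 6.0%) and in MCF10CA1a against MCF10DCIS (background 6.03%). None was counted as lower in MCF10CA1a against MCF10AT1 (background 3.97%) or against MCF10DCIS (background 1.35%). On rescaled TPM, none passed in MCF10DCIS against MCF10AT1 (background 6.60% higher and 7.47% lower). COX6B2 remained the only member counted as higher in MCF10CA1a, with a background of 8.35% against MCF10AT1 and 6.02% against MCF10DCIS, and none was lower (background 5.46% and 2.88%).

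At 1.5-fold, MCF10DCIS against MCF10AT1 gave 1 higher member (background 7.20%), ATP5MC1, and 9 lower members (background 26.0%), among them NDUFA8, UQCR10 and NDUFB6. MCF10CA1a against MCF10AT1 gave 3 higher members (background 13.0%), COX6B2, NDUFB5 and NDUFA7, and 0 lower (background 9.09%). MCF10CA1a against MCF10DCIS gave 5 higher members (background 21.7%), COX6B2, NDUFA8, ATP5F1E, NDUFB6 and UQCR10, and 0 lower (background 3.42%). None of the 75 members was higher by at least 0.25 at each step of the order MCF10A, MCF10AT1, MCF10DCIS, MCF10CA1a (background 0.755%), and none was lower at each step (background 0.481%). In each of the 6 comparisons the members' share past 2-fold in either direction was below that of all compared genes. The members' differences also spread less, with an interquartile range of 0.27 for MCF10AT1, 0.36 for MCF10DCIS and 0.34 for MCF10CA1a, each against MCF10A, where all compared genes had 0.55, 0.75 and 0.69. This describes the deposited means and was not tested.

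**Figure D2:**
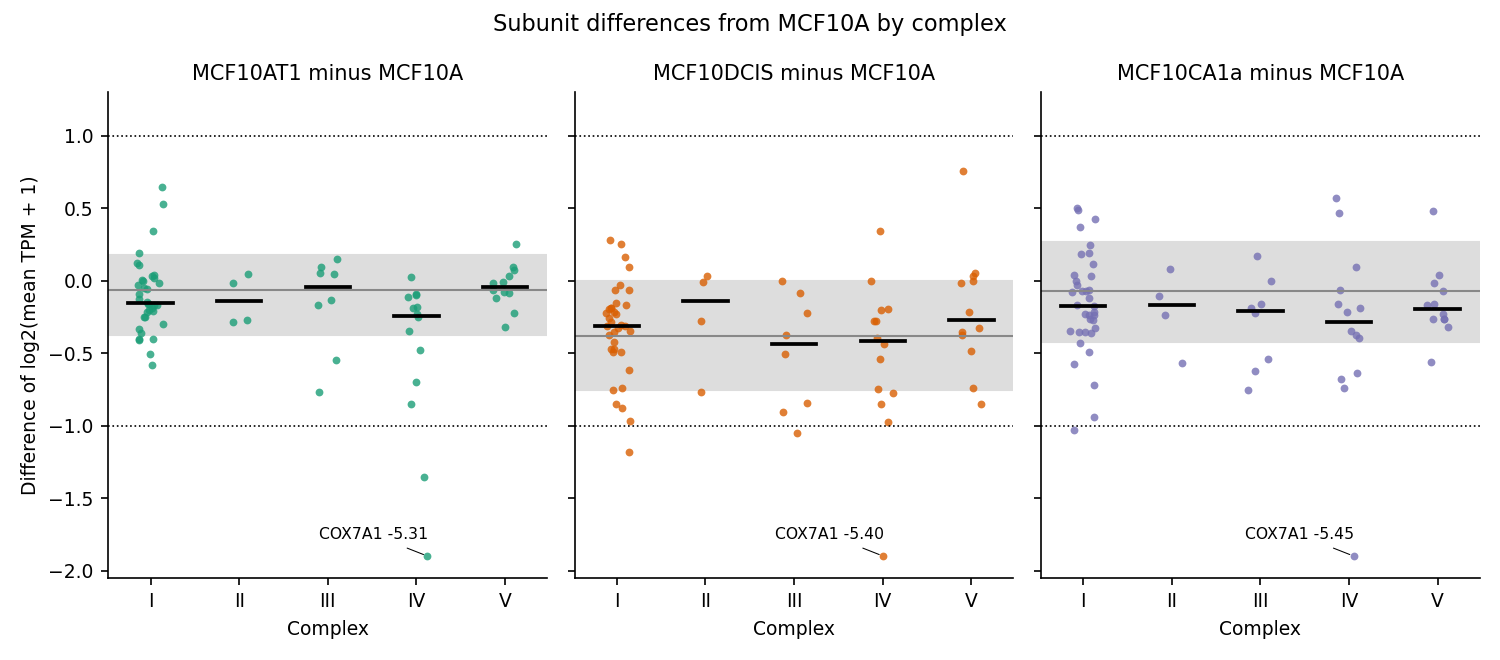
Each point is 1 subunit's difference of log2(mean TPM + 1) from MCF10A, by complex; black bars are medians, the grey line and band are the median and quartiles of all compared genes, and dotted lines mark 2-fold. COX7A1 lies outside the plotted range and is drawn at its lower edge with its value (-5.31, -5.40 and -5.45); ATP5IF1 is not drawn.

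COX7A1 was the one member that was abundant in MCF10A and nearly absent in the derived lines. COX7A1 is an isoform of the small subunit VIIa of cytochrome c oxidase, used mainly in heart and skeletal muscle, and its gene lies at chr19:36150922-36152869 on the minus strand (GRCh38). It had 42.7 TPM in MCF10A, 0.1004 in MCF10AT1 and 0.0369 in MCF10DCIS, and was listed at 0 in MCF10CA1a. The difference from MCF10A was -5.31 in MCF10AT1 and -5.40 in MCF10DCIS, and with a pseudocount of 0.1 in place of 1 it was -7.74 and -8.29, so its size is set by the pseudocount. As a share of the MCF10A level, 0.235% was left in MCF10AT1 and 0.0863% in MCF10DCIS.

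The ubiquitous isoform COX7A2 was the main form in all lines. It had 334 TPM in MCF10A, 285 TPM in MCF10AT1, 276 TPM in MCF10DCIS and 287 TPM in MCF10CA1a. Its difference from MCF10A was -0.23 for MCF10AT1, -0.28 for MCF10DCIS and -0.22 for MCF10CA1a, and on rescaled TPM -0.10, 0.091 and -0.076, so its sign in MCF10DCIS depended on the scale. The sum of COX7A1 and COX7A2 was lower in the derived lines on deposited TPM, 285 TPM in MCF10AT1, 276 in MCF10DCIS and 287 in MCF10CA1a, against 377 in MCF10A, and COX7A1 made up 11.3% of that sum in MCF10A. COX7A2L is a related protein that takes part in respiratory supercomplexes, and it was left out of that sum. COX7A2L had 30.4 TPM in MCF10A, 31.0 TPM in MCF10AT1, 38.8 TPM in MCF10DCIS and 45.5 TPM in MCF10CA1a. Its difference from MCF10A relative to all genes was 0.09 for MCF10AT1, 0.72 for MCF10DCIS and 0.64 for MCF10CA1a.

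Striated muscle markers were near 0, and genes beside COX7A1 remained present in the derived lines. Of 8 striated muscle markers, 0 reached 1 TPM in any line, MYH2 and MYH7 were listed at 0 in all of them, and the sum of the 8 was 0.467 TPM in MCF10A, 0.189 TPM in MCF10AT1, 0.286 TPM in MCF10DCIS and 0.193 TPM in MCF10CA1a. CAPNS1, the calpain small subunit gene that ends next to it, had 433 TPM in MCF10A, 417 TPM in MCF10AT1, 222 TPM in MCF10DCIS and 321 TPM in MCF10CA1a. ZNF146, a zinc finger gene on the other side, had 29.6 TPM in MCF10A, 25.9 TPM in MCF10AT1, 23.4 TPM in MCF10DCIS and 26.02 TPM in MCF10CA1a. SDHAF1, a complex II assembly factor gene within 250 kb, had 12.4 TPM in MCF10A, 12.9 TPM in MCF10AT1, 14.1 TPM in MCF10DCIS and 15.5 TPM in MCF10CA1a. Among the 10 genes of at least 5 TPM within 250 kb, only SYNE4 differed by more than 2-fold, with 8.36 TPM in MCF10A, 2.00 TPM in MCF10AT1, 13.4 TPM in MCF10DCIS and 0.457 TPM in MCF10CA1a.

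Among the other isoform sets, the widely used form dominated in each line and the tissue-restricted form was absent or scarce. COX4I1 had 472 TPM in MCF10A, 290 TPM in MCF10AT1, 275 TPM in MCF10DCIS and 295 TPM in MCF10CA1a, and its lung-enriched and hypoxia-responsive partner COX4I2 was listed at 0 throughout. COX6A1 had 346 TPM in MCF10A, 290 TPM in MCF10AT1, 300.2 TPM in MCF10DCIS and 304 TPM in MCF10CA1a, and the muscle form COX6A2 was listed at 0 throughout. For subunit VIIb, COX7B had 77.7 TPM in MCF10A, 71.8 TPM in MCF10AT1, 57.2 TPM in MCF10DCIS and 74.1 TPM in MCF10CA1a, with COX7B2 listed at 0. In the subunit VIII pair, COX8A had 288 TPM in MCF10A, 253 TPM in MCF10AT1, 218 TPM in MCF10DCIS and 257 TPM in MCF10CA1a, while COX8C did not exceed 0.0152 TPM.

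COX6B2, the testis form of subunit VIb, was the only restricted isoform that passed 2-fold between derived lines. It had 2.22 TPM in MCF10A, 0.258 TPM in MCF10AT1, 0.643 TPM in MCF10DCIS and 3.45 TPM in MCF10CA1a, so MCF10CA1a and MCF10A were high and the other lines low. The difference was 1.82 in MCF10CA1a against MCF10AT1, 1.44 in MCF10CA1a against MCF10DCIS and -1.36 in MCF10AT1 against MCF10A. Even at its highest it was 0.895% of the COX6B1 and COX6B2 sum, since COX6B1 had 503 TPM in MCF10A, 395 TPM in MCF10AT1, 345 TPM in MCF10DCIS and 382 TPM in MCF10CA1a. None of 4 testis germ cell markers reached 1 TPM, with sums of 0.0595 TPM in MCF10A, 0.0253 TPM in MCF10AT1, 0.00444 TPM in MCF10DCIS and 0.0161 TPM in MCF10CA1a.

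The 3 genes for the identical mature c-subunit of complex V differed in their shares between lines. ATP5MC1 had 129 TPM in MCF10A, 137 TPM in MCF10AT1, 218 TPM in MCF10DCIS and 180 TPM in MCF10CA1a. ATP5MC3 had 244 TPM in MCF10A, 249.4 TPM in MCF10AT1, 210 TPM in MCF10DCIS and 203 TPM in MCF10CA1a. ATP5MC2 had 180 TPM in MCF10A, 214 TPM in MCF10AT1, 177 TPM in MCF10DCIS and 171 TPM in MCF10CA1a. ATP5MC1 thus supplied 36.0% of the summed level in MCF10DCIS and 32.5% in MCF10CA1a, against 23.3% in MCF10A, while the sum itself was 605 TPM in MCF10DCIS and 554 in MCF10CA1a, against 553 in MCF10A. The difference of ATP5MC1 in MCF10DCIS against MCF10A was 0.75 on deposited TPM and 1.12 on rescaled TPM. Its gene lies at chr17:48892765-48895871 on the plus strand.

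NDUFA4, the complex IV subunit once assigned to complex I, had 59.4 TPM in MCF10A, 42.3 TPM in MCF10AT1, 32.4 TPM in MCF10DCIS and 35.2 TPM in MCF10CA1a. Its paralogue NDUFA4L2, which is known as a hypoxia-induced gene, stayed at or under 0.532 TPM. A second paralogue, C15orf48, which can take the place of NDUFA4 in complex IV, was looked up after its values were seen. It had 2.37 TPM in MCF10A, 1.44 TPM in MCF10AT1, 0.0746 TPM in MCF10DCIS and 8.11 TPM in MCF10CA1a, and the difference was 3.08 in MCF10CA1a against MCF10DCIS and 1.43 in MCF10CA1a against MCF10A.

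**Figure D3:**
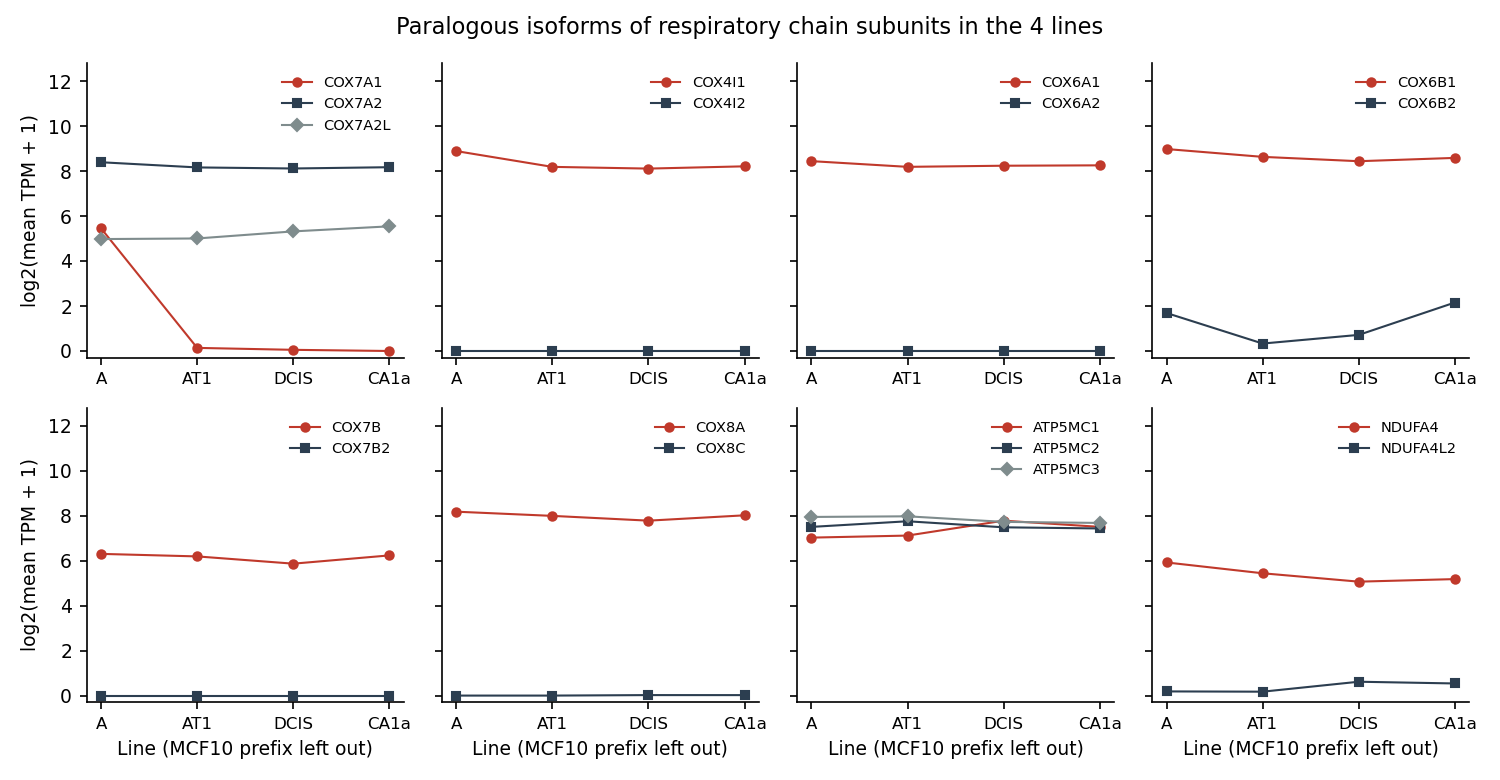
Each panel shows 1 set of paralogues as log2(mean TPM + 1) in the 4 lines, 1 point per gene and line, joined by lines to guide the eye; NDUFA4L2 does not match the naming pattern. COX7A1 is at 0.1004 TPM or less in the derived lines while COX7A2 stays between 276 and 334 TPM, and COX4I2, COX6A2 and COX7B2 lie at 0 in all lines.

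Within complex I, 0 of 36 subunits passed 2-fold in MCF10AT1, 1 was lower in MCF10DCIS and 1 in MCF10CA1a, each against MCF10A. The background of lower genes was 5.87%, 14.8% and 7.14% in these lines. Below MCF10A by any amount were 26 of the 36 in MCF10AT1, 32 in MCF10DCIS and 26 in MCF10CA1a. Among all 13108 compared genes, 7506, 9873 and 7352 lay below MCF10A in these lines. On rescaled TPM the complex I counts were 20, 13 and 19, beside 5996, 7267 and 6028 of 12903 genes. NDUFA5, an accessory subunit of the peripheral arm, had 21.01 TPM in MCF10A, 14.5 TPM in MCF10AT1, 8.71 TPM in MCF10DCIS and 10.5 TPM in MCF10CA1a, a difference from MCF10A of -0.51, -1.18 and -0.94. NDUFB2, an accessory subunit of the membrane arm, had 258 TPM in MCF10A, 172 TPM in MCF10AT1, 142 TPM in MCF10DCIS and 125 TPM in MCF10CA1a. Both were highest in the parent line. NDUFA8 had 29.6 TPM in MCF10A, 43.1 TPM in MCF10AT1, 20.7 TPM in MCF10DCIS and 41.9 TPM in MCF10CA1a, which set MCF10AT1 and MCF10CA1a above MCF10A and MCF10DCIS. NDUFB6, a membrane-arm subunit, had 20.7 TPM in MCF10A, 32.8 TPM in MCF10AT1, 17.6 TPM in MCF10DCIS and 28.1 TPM in MCF10CA1a, the same division of the lines. NDUFB5 and NDUFB8, also of the membrane arm, divided the lines differently, with MCF10DCIS and MCF10CA1a above MCF10A and MCF10AT1. NDUFB5 had 49.0 TPM in MCF10A, 43.8 TPM in MCF10AT1, 59.6 TPM in MCF10DCIS and 69.7 TPM in MCF10CA1a, and NDUFB8 had 92.8 TPM in MCF10A, 80.2 TPM in MCF10AT1, 111 TPM in MCF10DCIS and 106 TPM in MCF10CA1a.

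The subgroups of complex I were described by their medians, and differences between them were not tested. The 8 NDUFS subunits, mostly iron-sulfur and core proteins, had a median difference from MCF10A of -0.04 for MCF10AT1, -0.17 for MCF10DCIS and -0.12 for MCF10CA1a, with 0 past 2-fold. The 12 NDUFA subunits had medians of -0.18 for MCF10AT1, -0.46 for MCF10DCIS and -0.23 for MCF10CA1a, and the 11 NDUFB subunits -0.16 for MCF10AT1, -0.23 for MCF10DCIS and -0.17 for MCF10CA1a. On rescaled TPM the MCF10DCIS medians were 0.19 for NDUFS, -0.10 for NDUFA and 0.13 for NDUFB subunits, so the sign for NDUFS and NDUFB subunits depended on the scale.

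In complex II, SDHB, the iron-sulfur subunit, had 75.7 TPM in MCF10A, 74.9 TPM in MCF10AT1, 77.3 TPM in MCF10DCIS and 80.1 TPM in MCF10CA1a. SDHC, a membrane anchor, had 85.4 TPM in MCF10A, 69.9 TPM in MCF10AT1, 84.6 TPM in MCF10DCIS and 72.4 TPM in MCF10CA1a, and the other anchor, SDHD, had 57.5 TPM in MCF10A, 59.5 TPM in MCF10AT1, 47.3 TPM in MCF10DCIS and 53.3 TPM in MCF10CA1a. None of these 3 subunits differed from MCF10A by 1.5-fold. SDHA, the flavoprotein that oxidises succinate, was lower, with 71.9 TPM in MCF10A, 59.5 TPM in MCF10AT1, 41.8 TPM in MCF10DCIS and 48.2 TPM in MCF10CA1a, and a difference from MCF10A of -0.77 in MCF10DCIS and -0.57 in MCF10CA1a. SDHA has near-identical pseudogene copies, whose symbols summed to 8.59 TPM in MCF10A, 8.91 TPM in MCF10AT1, 8.19 TPM in MCF10DCIS and 9.13 TPM in MCF10CA1a. How reads were split between these copies is not given in the sources used here, so the SDHA levels are uncertain to that extent.

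Of the 8 complex III subunits, 0 were lower by 2-fold in MCF10AT1, 1 in MCF10DCIS and 0 in MCF10CA1a, each against MCF10A. The background of lower genes was 5.87%, 14.8% and 7.14%. All 8 lay below MCF10A in MCF10DCIS, as did 9873 of the 13108 compared genes. After rescaling 5 of the 8 did, beside 7267 of 12903 genes. UQCRQ, a small accessory subunit, had 451 TPM in MCF10A, 482 TPM in MCF10AT1, 425 TPM in MCF10DCIS and 451 TPM in MCF10CA1a. UQCRC1, a core protein, had 175 TPM in MCF10A, 194 TPM in MCF10AT1, 175 TPM in MCF10DCIS and 153 TPM in MCF10CA1a. UQCRC2, the other core protein, was highest in the parent line, with 154 TPM in MCF10A, 89.9 TPM in MCF10AT1, 81.2 TPM in MCF10DCIS and 99.2 TPM in MCF10CA1a. UQCRB, which takes part in ubiquinone binding, had 87.1 TPM in MCF10A, 59.2 TPM in MCF10AT1, 41.5 TPM in MCF10DCIS and 51.3 TPM in MCF10CA1a. UQCR10 was low in MCF10DCIS, with 34.6 TPM in MCF10A, 35.8 TPM in MCF10AT1, 18.8 TPM in MCF10DCIS and 29.6 TPM in MCF10CA1a. UQCRFS1, the Rieske iron-sulfur protein, was the least abundant in MCF10A, with 28.7 TPM in MCF10A, 26.1 TPM in MCF10AT1, 21.9 TPM in MCF10DCIS and 25.6 TPM in MCF10CA1a, beside a pseudogene sum of 1.503 to 1.95 TPM.

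Complexes I to V had median differences from MCF10A of -0.15, -0.14, -0.04, -0.24 and -0.04 for MCF10AT1. They had -0.31, -0.14, -0.44, -0.42 and -0.27 for MCF10DCIS, and -0.17, -0.17, -0.21, -0.28 and -0.20 for MCF10CA1a. Rescaled, MCF10DCIS gave 0.05, 0.22, -0.08, -0.05 and 0.10. Of 14 compared complex IV subunits, 2, 1 and 1 were lower by 2-fold in MCF10AT1, MCF10DCIS and MCF10CA1a (background 5.87%, 14.8% and 7.14%). The differences of complex V from MCF10A had an interquartile range of 0.13 for MCF10AT1, 0.41 for MCF10DCIS and 0.21 for MCF10CA1a. ATP5F1B had 399 TPM in MCF10A, 381 TPM in MCF10AT1, 318 TPM in MCF10DCIS and 332 TPM in MCF10CA1a, and the inhibitor ATP5IF1 had 61.9 TPM in MCF10A, 56.4 TPM in MCF10AT1, 45.5 TPM in MCF10DCIS and 57.2 TPM in MCF10CA1a. Relative to all genes, ATP5IF1 lay within 0.07 of zero in each derived line. ATP5F1E was low in MCF10DCIS alone, with 15.4 TPM in MCF10A, 13.01 TPM in MCF10AT1, 8.06 TPM in MCF10DCIS and 15.2 TPM in MCF10CA1a.

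Many departures of members other than COX7A1 and COX6B2, but not all, lay on chromosomes whose other genes differed in the same direction. This grouping was chosen after the values were seen. Other genes of chromosomes 7, 8 and 16, 1704 in all, had a median difference from MCF10A relative to all genes of -0.45 for MCF10AT1, -0.49 for MCF10DCIS and -0.51 for MCF10CA1a. The 9 compared members on these chromosomes, COX4I1, COX6C, NDUFA4, NDUFA5, NDUFB10, NDUFB2, NDUFB9, UQCRB and UQCRC2, had medians of -0.48 for MCF10AT1, -0.47 for MCF10DCIS and -0.65 for MCF10CA1a. All 9 lay below the median of all genes in each derived line, as did 88.3% of the other genes of these chromosomes in MCF10AT1, 83.2% in MCF10DCIS and 85.6% in MCF10CA1a. Of the 10 members lowest relative to all genes, 8 lay on chromosomes 7, 8 and 16 for MCF10AT1, 6 for MCF10DCIS and 8 for MCF10CA1a. Among them COX6C, a small subunit of complex IV, had 92.8 TPM in MCF10A, 51.1 TPM in MCF10AT1, 54.9 TPM in MCF10DCIS and 59.4 TPM in MCF10CA1a. NDUFB10 had 105 TPM in MCF10A, 79.2 TPM in MCF10AT1, 53.4 TPM in MCF10DCIS and 63.5 TPM in MCF10CA1a. Between derived lines, the other genes of these chromosomes were displaced by -0.05 in MCF10DCIS against MCF10AT1 and by -0.03 in MCF10CA1a against MCF10AT1. The 9 members had medians of 0.03 and -0.20 in these comparisons. In MCF10CA1a against MCF10DCIS they had -0.16, beside -0.002 for the other genes. All 9 lay below the median of all genes there, as did 50.4% of the other genes.

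Chromosome 9 carries NDUFA8 and NDUFB6, and its other 536 genes had a median relative to all genes of 0.45 for MCF10AT1, 0.00 for MCF10DCIS and 0.47 for MCF10CA1a. NDUFA8 stood at 0.60 for MCF10AT1, -0.11 for MCF10DCIS and 0.56 for MCF10CA1a, and NDUFB6 at 0.71 for MCF10AT1, 0.16 for MCF10DCIS and 0.50 for MCF10CA1a. The lines that were high for these subunits were thus the lines that were high for the chromosome. On chromosomes 3, 10 and 17 the other 1964 genes had medians of 0.07 for MCF10AT1, 0.26 for MCF10DCIS and 0.23 for MCF10CA1a, and the 7 members there, ATP5F1C, ATP5MC1, ATP5PD, NDUFB4, NDUFB5, NDUFB8 and UQCRC1, had medians of 0.01 for MCF10AT1, 0.43 for MCF10DCIS and 0.27 for MCF10CA1a. All 7 lay above the median of all genes in MCF10DCIS, as did 69.1% of the other genes there. ATP5F1E lies on chromosome 20, whose other 361 genes had a median of -0.37 in MCF10DCIS and 0.12 in MCF10CA1a, where ATP5F1E stood at -0.47 and 0.05. On the other chromosomes the 56 members had medians of -0.05 for MCF10AT1, 0.07 for MCF10DCIS and -0.13 for MCF10CA1a. Among them, NDUFA6 and UQCR10 on chromosome 22 had medians of -0.48 for MCF10DCIS and -0.32 for MCF10CA1a. Its other 312 genes had 0.05 and -0.01. NDUFA12 on chromosome 12 stood at -0.37 for MCF10DCIS, where the other genes there had -0.04. For chromosome 18 the other 186 genes had medians of -0.25 for MCF10AT1, -0.30 for MCF10DCIS and -0.19 for MCF10CA1a. ATP5F1A and NDUFV2 lie there and had medians of -0.22, -0.23 and -0.42.

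Across the 75 members, Spearman's rho between a member's difference and the median of the other genes of its chromosome was 0.51 for MCF10AT1, 0.57 for MCF10DCIS and 0.50 for MCF10CA1a. Over all 12619 other compared genes with a position, taken 1 by 1, it was 0.32 for MCF10AT1, 0.35 for MCF10DCIS and 0.35 for MCF10CA1a. Unlike the members, each of these genes is itself part of the median of its chromosome. Members of 1 chromosome share the same median and all values share the MCF10A column, so these are descriptions and have no p-value. The table holds no copy number, and the part of gene dosage in these differences was not tested. COX7A1 and COX6B2 lie on chromosome 19, whose other genes had medians of 0.05 for MCF10AT1, -0.02 for MCF10DCIS and -0.04 for MCF10CA1a.

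**Figure D4:**
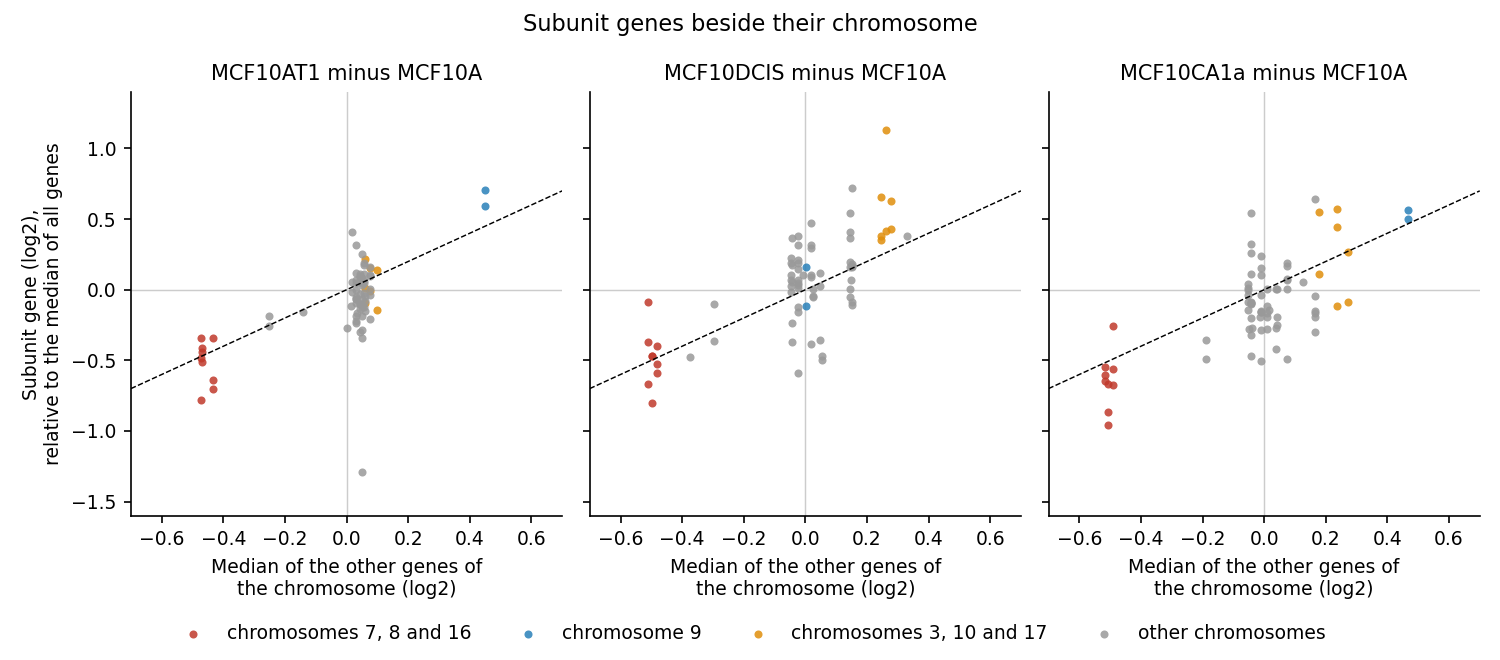
Each point is 1 subunit gene: its difference from MCF10A against the median difference of the other genes of its chromosome, both relative to the median of all compared genes on the log2 scale, with a dashed line of equality. Points for chromosomes 7, 8 and 16 lie at the lower left in all panels and those of chromosome 9 at the upper right in MCF10AT1 and MCF10CA1a but not in MCF10DCIS; COX7A1 lies below the plotted range.

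The subunits whose names do not match the pattern had median differences from MCF10A of -0.33 for MCF10AT1, -0.47 for MCF10DCIS and -0.30 for MCF10CA1a, beside -0.13, -0.31 and -0.19 for the members. Rescaled, their medians were -0.21, -0.11 and -0.16. Of 7 compared, 0 passed 2-fold in MCF10AT1, and ATP5MF alone was lower in MCF10DCIS (background 14.8%) and in MCF10CA1a (background 7.14%). On rescaled TPM ATP5MF passed in MCF10DCIS (-1.24) but not in MCF10CA1a (-0.95). ATP5MF, a membrane subunit of complex V, had 142 TPM in MCF10A, 97.1 TPM in MCF10AT1, 46.2 TPM in MCF10DCIS and 66.3 TPM in MCF10CA1a. CYC1, the cytochrome c1 of complex III, had 167 TPM in MCF10A, 103 TPM in MCF10AT1, 89.2 TPM in MCF10DCIS and 97.5 TPM in MCF10CA1a.

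The 13 mitochondrially encoded partners were compared with the nuclear subunits by their sums. The ratio of the mitochondrially encoded sum to the nuclear-encoded sum was 1.12 for MCF10A, 1.06 for MCF10AT1, 0.925 for MCF10DCIS and 1.17 for MCF10CA1a. None of the 13 passed 2-fold in MCF10AT1, 3 were lower in MCF10DCIS and 1 in MCF10CA1a, and none was higher in any of these lines. The background of lower genes was 5.87%, 14.8% and 7.14%, and that of higher genes 3.39%, 3.56% and 5.97%. Their median difference was -0.36, -0.34 and 0.06, beside -0.07, -0.38 and -0.07 for all compared genes. In MCF10CA1a 7 of the 13 lay above MCF10A and 6 below, with MT-ND2 the highest (0.61). MT-CYB, the cytochrome b of complex III, had 456 TPM in MCF10A, 383 TPM in MCF10AT1, 143 TPM in MCF10DCIS and 215 TPM in MCF10CA1a. MT-CO3, a core subunit of complex IV, had 1812 TPM in MCF10A, 1773 TPM in MCF10AT1, 779 TPM in MCF10DCIS and 1220.2 TPM in MCF10CA1a, whereas MT-CO1 had 2724 TPM in MCF10A, 2599 TPM in MCF10AT1, 2425 TPM in MCF10DCIS and 3161 TPM in MCF10CA1a.

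Genes of assembly factors and neighbouring pathways past 2-fold are given here only for the comparisons with MCF10A. For MCF10AT1, MCF10DCIS and MCF10CA1a the background was 3.39%, 3.56% and 5.97% higher and 5.87%, 14.8% and 7.14% lower. On rescaled TPM it was 5.82%, 7.83% and 9.46% higher and 6.64%, 10.4% and 7.79% lower. Of 16 complex I assembly factors, NDUFAF6 and TMEM126B were lower in MCF10DCIS, at 4.13 and 7.38 TPM, against 10.1 and 17.4 TPM in MCF10A. Neither passed on rescaled TPM (-0.89 and -0.85), where NDUFAF7 was higher in MCF10CA1a (1.12). Of 22 complex IV assembly factors, CMC2 alone passed on deposited TPM, with 103 TPM in MCF10A, 48.2 TPM in MCF10AT1, 45.1 TPM in MCF10DCIS and 59.7 TPM in MCF10CA1a. Rescaled, CMC2 did not pass (-0.96 in MCF10AT1 and -0.82 in MCF10DCIS), and COA6 was higher in MCF10DCIS (1.03). ATPAF2, a complex V assembly factor, was higher in MCF10AT1, at 24.8 TPM against 11.8 in MCF10A. It passed on rescaled TPM in MCF10AT1 and also in MCF10DCIS (1.17 and 1.22). DLD, the dihydrolipoamide dehydrogenase, was the only 1 of 13 citric acid cycle genes past 2-fold, with 56.6 TPM in MCF10A, 27.9 TPM in MCF10AT1, 21.8 TPM in MCF10DCIS and 29.1 TPM in MCF10CA1a, and it passed in MCF10DCIS and lay just short of the limit in MCF10AT1. With rescaled TPM, DLD lay just short of the limit in MCF10DCIS too (-0.996). COQ8A, a regulator of ubiquinone synthesis, had 3.43 TPM in MCF10A, 5.76 TPM in MCF10AT1, 8.52 TPM in MCF10DCIS and 11.3 TPM in MCF10CA1a, and was higher in MCF10DCIS and MCF10CA1a. None of 15 regulators of mitochondrial gene expression passed 2-fold on deposited TPM, and their medians were 0.045 for MCF10AT1, 0.22 for MCF10DCIS and 0.18 for MCF10CA1a. On rescaled TPM the MCF10DCIS median was 0.59, and TFB1M and LRPPRC passed 2-fold there (1.35 and 1.00). Among the regulators NRF1 had 5.35 TPM in MCF10A, 4.59 TPM in MCF10AT1, 3.28 TPM in MCF10DCIS and 4.32 TPM in MCF10CA1a. The 75 mitochondrial ribosomal protein genes had medians of 0.08 for MCF10AT1, -0.18 for MCF10DCIS and 0.17 for MCF10CA1a, beside -0.13, -0.31 and -0.19 for the respiratory chain subunits. On deposited TPM, 0 of these ribosomal protein genes passed 2-fold in MCF10AT1. In MCF10DCIS 1 was higher and 3 were lower, and in MCF10CA1a 1 was higher and 0 were lower.

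**Figure D5:**
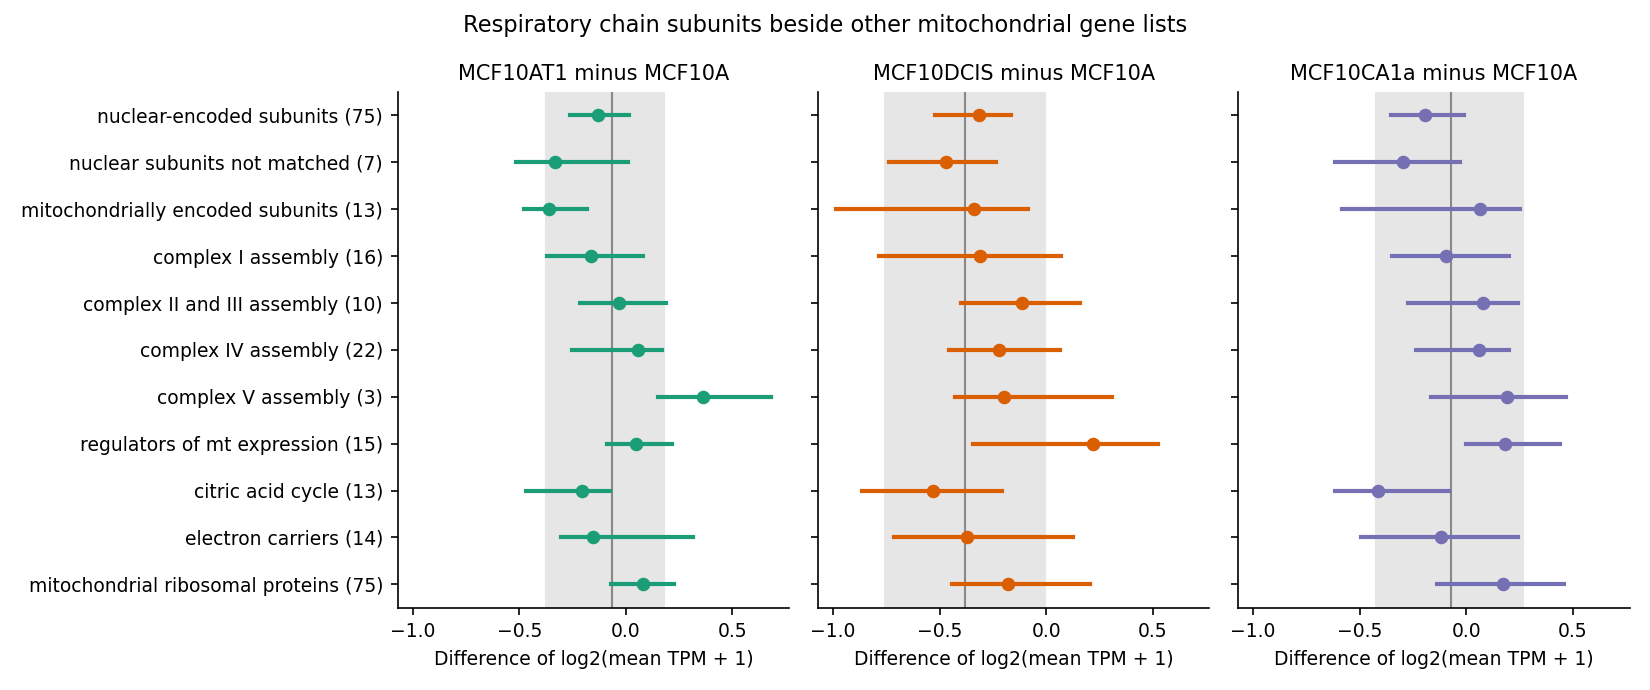
Points are the median difference from MCF10A over each list on the log2(mean TPM + 1) scale, thick lines the quartiles, and the number of compared genes is in parentheses; the grey line and band are the median and quartiles of all compared genes. The respiratory chain subunits have medians of -0.13, -0.31 and -0.19, inside the quartiles of all genes in the 3 panels.

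The cell type labels were checked with fixed markers. All 7 epithelial markers reached 1 TPM in at least 1 line, TP63 being at 0.901 TPM in MCF10A, and their sum was 2770.1 TPM in MCF10A, 1601 TPM in MCF10AT1, 1846 TPM in MCF10DCIS and 1979 TPM in MCF10CA1a. Single markers differed more, with CDH1 at 149 TPM in MCF10A, 21.3 TPM in MCF10AT1, 42.3 TPM in MCF10DCIS and 51.9 TPM in MCF10CA1a, and KRT5 at 768 TPM in MCF10A, 592 TPM in MCF10AT1, 643 TPM in MCF10DCIS and 126 TPM in MCF10CA1a. Of 6 fibroblast markers, 2 reached 1 TPM, with a sum of 137 TPM in MCF10AT1 and 0.977 to 3.05 TPM in the other lines. Decorin (DCN) alone gave 134 TPM of the MCF10AT1 sum, COL1A1 gave 3.22 TPM, and COL1A2, COL3A1, PDGFRB and LUM were at or under 0.154 TPM there. Of 5 leukocyte markers 1 reached 1 TPM, CD68, with 2.87 to 6.41 TPM across the lines. Of 4 endothelial markers 1 reached 1 TPM, PECAM1, with 3.79 TPM in MCF10A and 0.866 to 2.05 TPM in the derived lines. Reads shared with other genes limit single values: 44 members have pseudogene symbols in the table, of which only those of SDHA and UQCRFS1 reached 5% of the gene. In addition, 7 members overlap another expressed gene on the same strand and 20 on the opposite strand, and the strand setting of the counting is not given in the sources used here.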

How the data were processed

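RNA was measured in 12 libraries of 4 lines, 3 per line; per the labels' protocols, a stranded kit was used on total RNA. The authors deposited 1 table of TPM with 1 mean per line for 59427 symbols, each column summing to 1000000 per the file. STAR, edgeR and hg38 are named in the submitters' processing notes; versions, quantifier, strand setting and annotation: not given in the sources used here. Depth per library is unknown.

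Differences are log2(mean TPM + 1) of the first-named line minus the second, over the 13108 genes with at least 1 TPM in at least 1 line, with limits of 2-fold and 1.5-fold. The limma tests planned for values per library could not be run on means, so no test was made. Differences of low genes are understated by the pseudocount. Rescaled TPM leave out genes of structural and small RNAs, of ribosomal proteins and of mitochondrial DNA, and the rest then sum to 1000000. Other alternatives were a pseudocount of 0.1, no filter, a filter of 5 TPM, median-of-ratios scaling and quantile normalization. Positions are from GENCODE release 29 on GRCh38, which held 54426 of the symbols, and promoter windows from RefSeq on GRCh38.p14. Named were the isoform sets, complex II, NDUFA4 and ATP5IF1, the highest and lowest member of each complex, members past 2-fold, the 4 members farthest each way from the median of all genes among those with at least 10 TPM, and of each other list up to 2 genes past 2-fold in comparisons with MCF10A; other names were chosen after their values were seen. The values of 1 member are not reported here. The members, the lists and these rules were chosen with earlier results of these data known. The calculation was tested on simulated data. Python 3.11.15, pandas 2.3.3, NumPy 2.4.6, SciPy 1.17.1 and matplotlib 3.10.9 were used.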

Additional observations from a re-analysis of the deposited data

How the results depend on the processing

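COX7A1 was lower by more than 2-fold against MCF10A in the 3 derived lines under all 6 alternatives run on its value. Members past 2-fold in MCF10AT1 against MCF10A numbered 2, with 1 under a filter of at least 5 TPM and 6 at 1.5-fold. In MCF10DCIS against MCF10A they numbered 3, with 19 at 1.5-fold. In MCF10CA1a against MCF10A they numbered 2, with 1 on rescaled TPM, with median-of-ratios scaling and with quantile normalization, and 9 at 1.5-fold. In MCF10DCIS against MCF10AT1 they numbered 1, with 2 at a pseudocount of 0.1, 0 on rescaled TPM and with quantile normalization, and 10 at 1.5-fold. In MCF10CA1a they numbered 1 against MCF10AT1 and 1 against MCF10DCIS, with 2 at a pseudocount of 0.1 and 0 under a filter of at least 5 TPM in both, and 3 and 5 at 1.5-fold. These numbers do not show which members passed: NDUFA8, the member counted in MCF10DCIS against MCF10AT1, did not pass with median-of-ratios scaling.

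The median of the members in MCF10DCIS against MCF10A was -0.31, and 0.044, 0.13 and 0.071 on rescaled TPM, with median-of-ratios scaling and with quantile normalization. In MCF10DCIS against MCF10AT1 it was -0.21, and 0.028, 0.16 and 0.037 under these scalings. In MCF10CA1a against MCF10DCIS it was 0.13, and -0.096, -0.23 and -0.16. Relative to all genes, the members' median in MCF10DCIS against MCF10A was 0.068 on deposited TPM, and 0.14, 0.14 and 0.071 under these scalings. ATP5MC1 passed 2-fold in MCF10DCIS against MCF10A under all 3 scalings (1.12, 1.21 and 1.10), whereas NDUFA5 and UQCRB there, NDUFB2 in MCF10CA1a against MCF10A and NDUFA8 in MCF10DCIS against MCF10AT1 passed under none of them.

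No paired analysis was possible because the columns are means per line and carry no replicate number. Leaving out single libraries and the replicate block were not run for the same reason. With 1 mean per line and unknown depth, no error limits any of these values, and levels under 1 TPM are the least certain.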
